A study of Sus scrofa with 3 samples.

Results

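The circadian clock genes were followed in the kidney of Wuzhishan pigs, a small breed from China, that were 6 to 7 months old and all fed a diet high in fat and cholesterol. The groups were intact males (IM), males castrated without hormone replacement (CM) and castrates with testosterone replacement (CMT). Equal amounts of RNA from 3 pigs went into the 1 library of each group, so there are 3 libraries and no replicate of any group. The sources used here give neither the hormone dose, nor how long after castration or at which hour of the day kidneys were taken. The genes were taken by name, as known core genes of the clock, from a list drawn up with earlier results of these data known: ARNTL, CLOCK, NPAS2, PER1, PER2, PER3, CRY1, CRY2, NR1D1 and DBP. Of these 10, 8 stood under their own symbol among the 34570 genes of the deposited table. DBP was found in a row that carries only its RefSeq gene number, and its values are given beside those of the 8. NR1D1 was not analysed here.

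The circadian clock is a loop of transcription that runs with a period of about a day in nearly every cell, the kidney tubule included. A dimer of ARNTL (also called BMAL1) with CLOCK or NPAS2 binds E-box motifs and turns on the PER and CRY genes, whose proteins then repress that dimer. A further loop runs through nuclear receptors: the REV-ERB proteins, coded by NR1D1 and NR1D2, repress ARNTL, and the ROR proteins activate it. In kidney the clock is known for daily rhythms of sodium, potassium and water excretion.

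The IM library held 16459771 counts, the CM library 18503537 and the CMT library 13601475. Levels below are CPM (counts scaled to a common library size), with an exact 95% Poisson interval. They are compared between libraries for 1 gene, never between genes, because transcript lengths were not used. A fold is the ratio of scaled counts with its exact 95% interval in parentheses, and a difference is called where that interval lies wholly beyond 2-fold. Both intervals cover counting error only: the spread between pigs cannot be estimated from 1 library a group, and no p-value is given. In bulk RNA, fewer cells of a type and less RNA per cell cannot be told apart. All 8 genes and DBP passed the filter on low counts, a mean of at least 1 CPM, as did 15472 genes in all.

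The CM pool had less RNA of ARNTL, NPAS2 and CRY1 than the IM pool, and more of PER3, CRY2 and DBP. Their point folds ran from 1.47 to 2.92. ARNTL was the only one called, lower in CM. Thus 1 of the 8 genes was called in CM against IM, where 2.71% of all compared genes were called. None of the 8 was called in CMT against CM, where 2.95% of all genes were, or in CMT against IM, where 1.5% were. With the interval asked to lie beyond 1.5-fold, ARNTL, NPAS2 and CRY1 were lower in CM than in IM, 3 of 8 genes, and 3.42% of all genes were lower by that rule. By the same rule NPAS2 alone was higher in CMT than in CM (3.68% of all genes higher) and PER1 alone was higher in CMT than in IM (2.3% higher). DBP was lower in CMT than in CM by the 1.5-fold rule, as 2.61% of all genes were. The median log2 fold of the 8 genes was 0.02 for CM over IM, 0.17 for CMT over CM and -0.12 for CMT over IM, with 4 genes above 0 and 4 below 0 in each. Over all compared genes the medians were -0.0066, -0.0043 and -0.013. The part of the hour of kidney collection, which is not given, in the differences between pools was not tested.

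**Figure D1:**
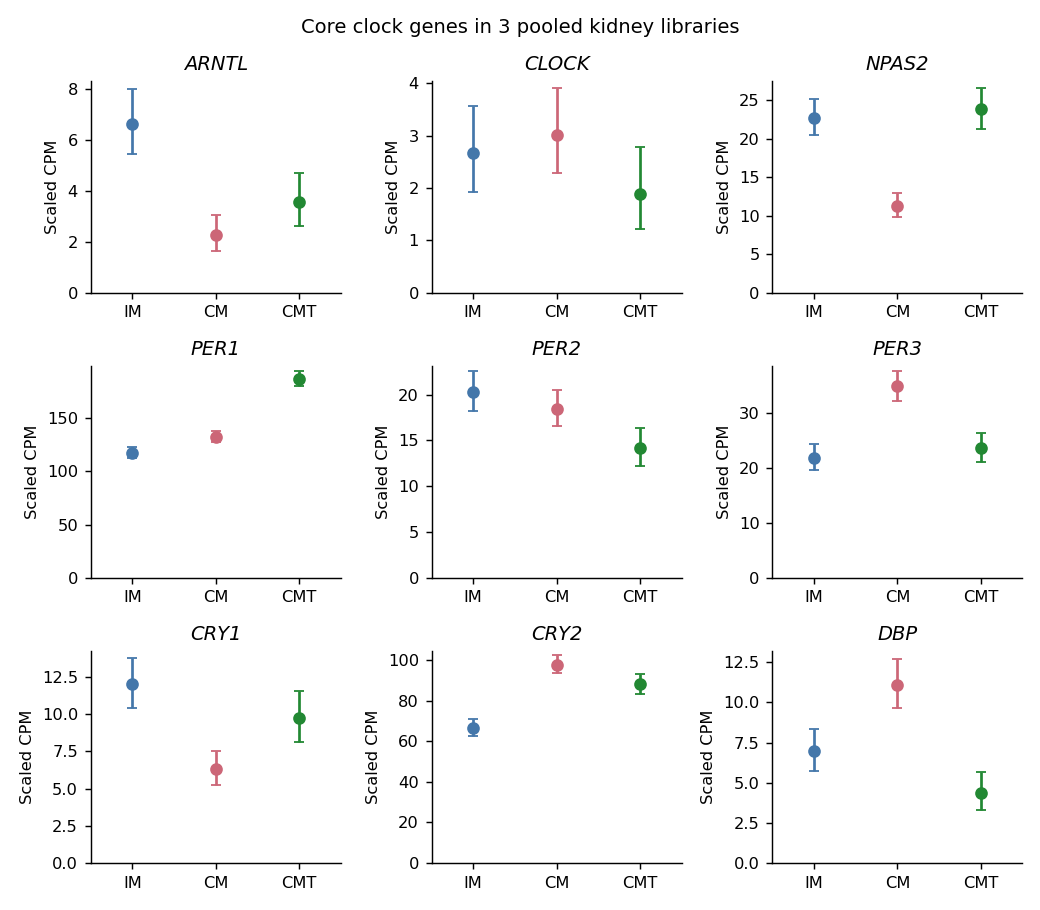
Level of each core clock gene (vertical axis, scaled CPM, starting at 0) in the IM, CM and CMT pools, 1 point per pooled library with its exact 95% Poisson interval, which covers counting error only. ARNTL, NPAS2 and CRY1 are lowest in CM, PER3, CRY2 and DBP are highest there, and PER1 is highest in CMT.

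Of the activators of the loop, ARNTL and NPAS2 were both lowest in CM, while their levels in CMT relative to IM differed. CLOCK was too thinly counted to place. ARNTL, the obligate partner of the dimer, gave 110 counts in IM, 43 in CM and 47 in CMT, or 6.64 CPM (5.46 to 8.01), 2.27 CPM (1.65 to 3.06) and 3.55 CPM (2.61 to 4.72). IM stood above both castrated pools, and the Poisson intervals of CM and CMT overlapped. The fold of IM over CM was 2.92 (2.04 to 4.26) for ARNTL, an interval just past 2, and the call was lost with a 99% interval or a filter at 5 CPM. Among all compared genes, 1.48% were lower in CM by at least as much. CMT stood above CM by 1.56-fold (1.01 to 2.42) and below IM by 1.87-fold (1.32 to 2.69), and neither difference was called.

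NPAS2, which can take the place of CLOCK in the dimer, had 376 counts in IM, 213 in CM and 316 in CMT. These are 22.7 CPM (20.5 to 25.1), 11.3 CPM (9.81 to 12.9) and 23.9 CPM (21.3 to 26.7). CM was the low library, with an interval that did not meet those of IM and CMT. The fold was 2.02 (1.70 to 2.40) for IM over CM and 2.12 (1.78 to 2.53) for CMT over CM, both at about 2-fold with intervals that reach below it. IM and CMT differed by 1.05-fold (0.902 to 1.22), an interval that includes equal levels. CLOCK itself was thinly counted, with 44, 57 and 25 counts, or 2.66, 3.02 and 1.89 CPM. Its intervals included equal levels in each comparison, from 1.13-fold (0.752 to 1.72) for CM over IM to 1.60-fold (0.981 to 2.67) for CM over CMT. Differences of CLOCK within these intervals were not detectable at this depth.

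The PER genes, which code for repressors of the ARNTL dimer, differed from one another. PER1 gave 1944 counts in IM, 2505 in CM and 2481 in CMT, or 117 CPM (112 to 123), 133 CPM (127 to 138) and 187 CPM (180 to 195). It was highest in CMT, above IM by 1.60-fold (1.504 to 1.70) and above CM by 1.41-fold (1.34 to 1.496), while CM over IM was 1.13-fold (1.06 to 1.20). PER2 gave 336, 349 and 187 counts, or 20.3, 18.5 and 14.1 CPM, and CMT was the low library. It stood lower in CMT than in IM by 1.44-fold (1.20 to 1.73) and lower than in CM by 1.31-fold (1.09 to 1.57), and IM over CM was 1.10-fold (0.943 to 1.28). PER3 gave 362, 658 and 312 counts, or 21.9 CPM (19.7 to 24.2), 34.8 CPM (32.2 to 37.6) and 23.6 CPM (21.0 to 26.3). CM was the high library for PER3, at 1.59-fold IM (1.40 to 1.82) and 1.48-fold CMT (1.29 to 1.70), and IM and CMT differed by 1.08-fold (0.924 to 1.26). PER1 was thus highest and PER2 lowest in CMT, whereas PER3 stood apart in CM; none of these differences passed the 2-fold rule.

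PER1 is also known as an early response gene and as a target of glucocorticoid and other steroid receptors, so genes of both kinds are given beside it. FOS, an immediate early transcription factor, stood at 42.6, 33.5 and 96.4 CPM in IM, CM and CMT and was called higher in CMT than in CM (2.88-fold, 2.62 to 3.17) and than in IM (2.26-fold, 2.06 to 2.48). EGR1, another, stood at 69.8, 53.7 and 137 CPM and was called in CMT against CM (2.55-fold, 2.36 to 2.75). Both were highest in CMT, as PER1 was, and lowest in CM, where PER1 was not. SGK1, a kinase induced by corticosteroids, stood at 250, 274 and 346 CPM, in the same order as PER1. FKBP5 and TSC22D3, further steroid receptor targets, instead were lowest in CM, at 129, 68.0 and 133 CPM and at 133, 94.5 and 150 CPM. The part of these signals in the level of PER1 was not tested.

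The cryptochromes, the other repressors, differed between CM and IM in opposite directions. CRY1 had 199 counts in IM, 119 in CM and 129 in CMT, or 12.0 CPM (10.4 to 13.8), 6.30 CPM (5.22 to 7.53) and 9.75 CPM (8.14 to 11.6). CM was the low library, below IM by 1.91-fold (1.51 to 2.42) and below CMT by 1.55-fold (1.20 to 2.003). CRY2 gave 1106, 1852 and 1168 counts, or 66.8 CPM (62.9 to 70.9), 98.0 CPM (93.6 to 103) and 88.2 CPM (83.3 to 93.5). For CRY2 both castrated pools were above IM, CM by 1.47-fold (1.36 to 1.58) and CMT by 1.32-fold (1.22 to 1.44), and CM stood over CMT by 1.11-fold (1.03 to 1.20). Neither cryptochrome passed the 2-fold rule in any comparison.

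DBP codes for a transcription factor that binds D-box motifs and is a direct target of the ARNTL dimer. Its row held 115 counts in IM, 210 in CM and 58 in CMT, or 6.95 CPM (5.73 to 8.34), 11.1 CPM (9.66 to 12.7) and 4.38 CPM (3.33 to 5.66). The order was CM, IM and CMT from high to low, and the 3 intervals did not overlap. CM over CMT was 2.54-fold (1.89 to 3.45), just short of the 2-fold rule, and 1.74% of all compared genes were lower in CMT than in CM by at least as much. CM over IM was 1.60-fold (1.27 to 2.03) and IM over CMT 1.58-fold (1.15 to 2.21).

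**Figure D2:**
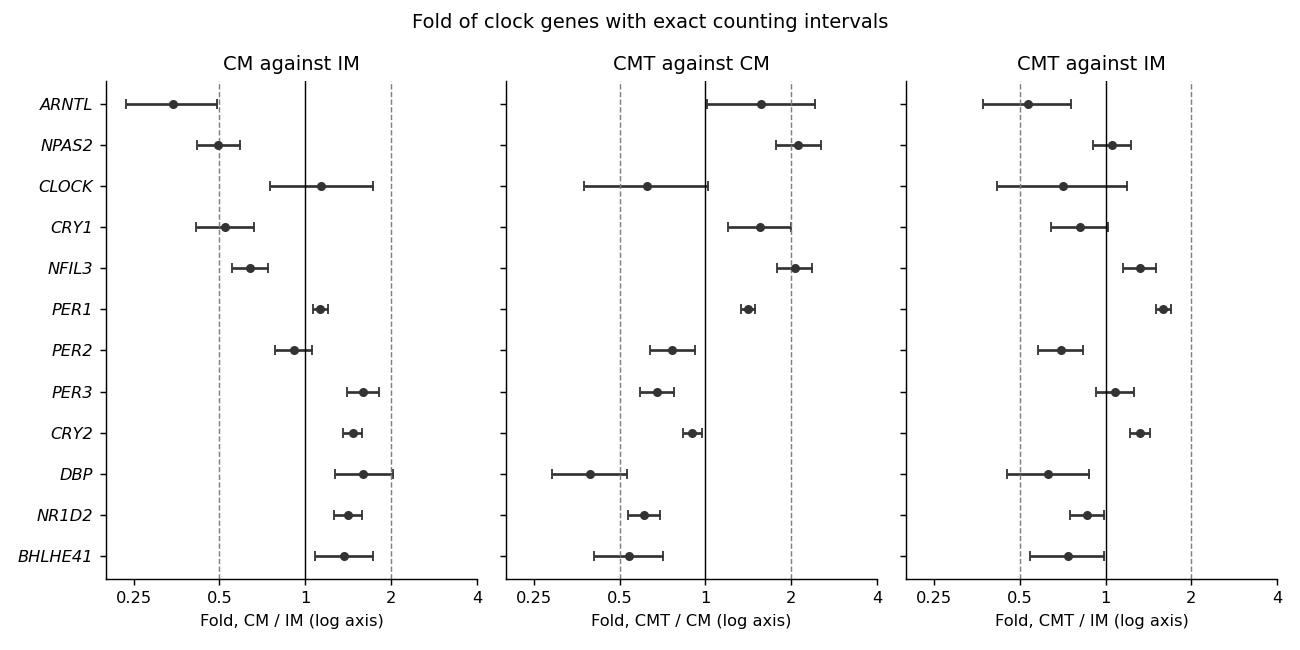
Fold of 12 clock genes (horizontal log axis) in the 3 comparisons, named above each panel, with exact 95% counting intervals; the solid line marks equal levels and the dashed lines 2-fold either way. The interval of ARNTL in CM against IM is the only one wholly beyond a dashed line. Each panel shares a library with each of the others, so the 3 panels are not independent.

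The wider set of clock genes comprised 36 names: further receptors, transcription factors, kinases, phosphatases and ubiquitin ligases of the loop. Of these, 33 were matched and 30 passed the filter. None was called in any comparison. The median log2 fold of the 30 was -0.03 for CM over IM, 0.03 for CMT over CM and -0.03 for CMT over IM. With the 1.5-fold rule 1 gene of the 30, NFIL3, was higher in CMT than in CM, as 3.68% of all compared genes were.

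Among the nuclear receptors, NR1D2, which codes for REV-ERB beta, had 511 counts in IM, 823 in CM and 351 in CMT. These are 30.9 CPM (28.2 to 33.7), 43.5 CPM (40.6 to 46.6) and 26.5 CPM (23.8 to 29.4). CM was the high library, at 1.41-fold IM (1.26 to 1.58) and 1.64-fold CMT (1.45 to 1.87). RORA, an activator of ARNTL, had intervals that included equal levels in each comparison, at 6.28, 7.67 and 5.82 CPM.

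NFIL3 codes for a repressor that competes with DBP for D-box motifs, and its level ran the other way from DBP. It had 458 counts in IM, 335 in CM and 482 in CMT, or 27.7 CPM (25.2 to 30.3), 17.7 CPM (15.9 to 19.7) and 36.4 CPM (33.2 to 39.8). CM was the lowest library and CMT the highest, 2.05-fold apart (1.78 to 2.37), with IM over CM at 1.56-fold (1.35 to 1.80). HLF, a D-box activator related to DBP, was nearly level at 39.1, 42.1 and 40.0 CPM, with every interval including equal levels. TEF, the third gene of that family, was not analysed here.

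BHLHE41 and BHLHE40 code for repressors that compete at E-box motifs. BHLHE41 gave 124, 193 and 73 counts, or 7.49, 10.2 and 5.52 CPM in IM, CM and CMT, so that CM was high and CMT low, 1.85-fold apart (1.41 to 2.46). BHLHE40, which also responds to hypoxia and growth signals, stood at 117, 120 and 169 CPM. Its CMT level was 1.41-fold that of CM (1.33 to 1.49) and 1.44-fold that of IM (1.36 to 1.54), while CM over IM was 1.03-fold (0.965 to 1.09). CIART, a repressor of the ARNTL dimer, had only 15, 23 and 25 counts, and its fold of CMT over IM was 2.08 (1.06 to 4.25). The kinases CSNK1D and CSNK1E, which mark PER proteins for breakdown, were not called in any comparison.

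**Figure D3:**
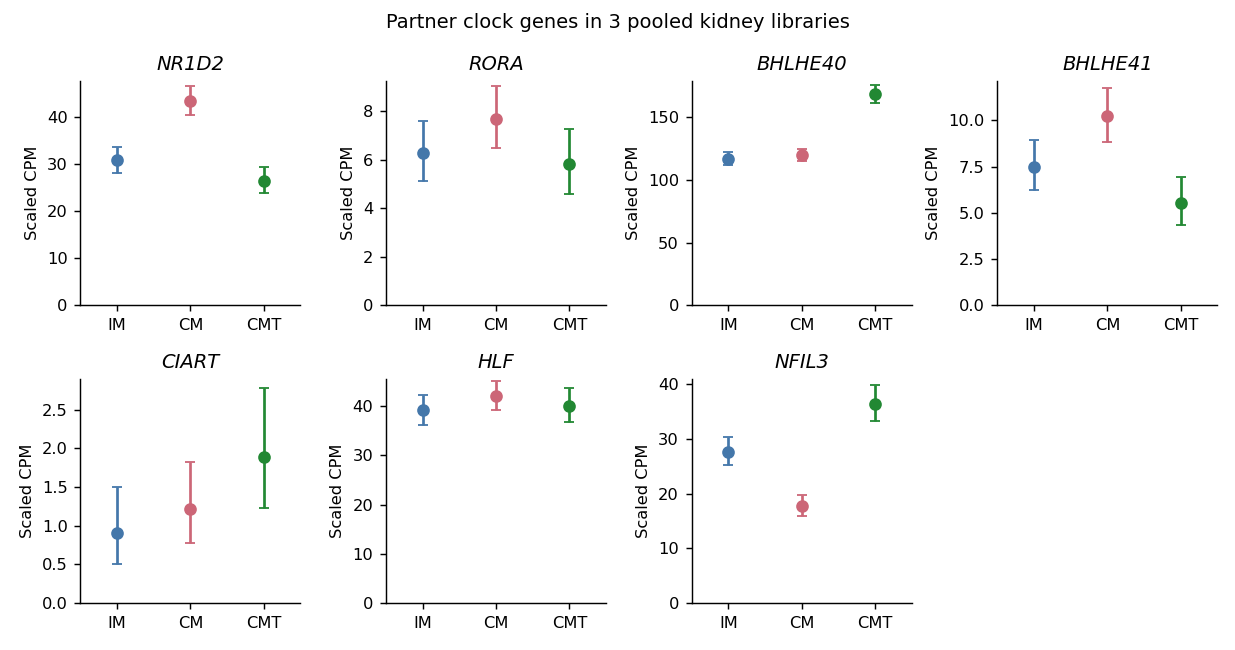
Level of 7 further clock genes (vertical axis, scaled CPM, starting at 0) in the IM, CM and CMT pools, 1 point per pooled library with its exact 95% Poisson interval for counting error. NR1D2 and BHLHE41 are highest in CM, NFIL3 is lowest in CM, and BHLHE40 is highest in CMT.

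Clock genes are often set in arms by the elements that drive them, as background knowledge and not from these data. One arm is driven by ROR and REV-ERB proteins (ARNTL, CLOCK, NPAS2, CRY1 and NFIL3), the other mainly by E-box and D-box motifs (PER1, PER2, PER3, CRY2, DBP, NR1D2, BHLHE40, BHLHE41, CIART and HLF); in many tissues their daily peaks fall at roughly opposite times. This grouping was made after the values were seen, and it carries no test. In CM against IM, the interval lay below equal levels for 4 of the 5 genes of the first arm and above for 0, with CLOCK spanning them. Among all compared genes 23.2% lay below and 21.2% above. An interval leaves equal levels more readily the more counts a gene has. Shares over genes of all depths, here and in the other comparisons, are therefore no yardstick for well-counted genes. In CM against IM the 4 matched proximal tubule markers, which are not clock genes, all lay off equal levels too, 3 above and 1 below. Of the 10 genes of the second arm, 6 lay above and 0 below, the 6 being PER1, PER3, CRY2, DBP, NR1D2 and BHLHE41. The count of 0 depends on which genes are put in the arm: USP2 and NAMPT, outputs of the clock with E-box motifs that were not put in it, lay below, at 0.931 (0.870 to 0.995) and 0.753 (0.675 to 0.840) of IM. The median log2 fold was -0.93 in the first arm and 0.44 in the second.

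In CMT against CM, 4 of the 5 genes of the first arm lay above equal levels and 0 below, where 21.3% of all genes lay above. ARNTL was among the 4 only narrowly, at 1.56-fold (1.01 to 2.42). In the second arm 6 of 10 lay below, where 20.4% of all genes did, and PER1 and BHLHE40 lay above, as did USP2 (1.90-fold) and NAMPT (1.22-fold, 1.08 to 1.37) outside the arm. Both comparisons use the same CM library, so they are not independent of each other. In CMT against IM, which does not use CM but shares a library with each of those comparisons, the arms were mixed. NFIL3 lay above and ARNTL below in the first arm, and 4 genes lay above and 4 below in the second, where 17.8% of all genes lay above and 17.5% below.

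Ratios of genes within 1 library do not depend on how libraries are scaled, and the length of each transcript cancels when such ratios are compared between libraries. The pairs were picked after the values were seen, each a gene highest in CM over a gene lowest in CM. That CM had the highest ratio therefore follows from the choice of pairs. PER3 gave 3.29 counts per count of ARNTL in IM, 15.3 in CM and 6.64 in CMT, so the ratio in CM was 4.65 times that in IM (3.16 to 6.93) and 2.31 times that in CMT (1.46 to 3.65). CMT in turn lay above IM by 2.02-fold (1.37 to 2.999). NR1D2 gave 4.65, 19.1 and 7.47 counts per count of ARNTL, 4.12-fold higher in CM than in IM (2.82 to 6.11). In both ratios CM was the highest library and CMT lay between CM and IM.

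CRY2 per CRY1 was 5.56, 15.6 and 9.05 in IM, CM and CMT, with CM over IM at 2.80-fold (2.19 to 3.59) and CM over CMT at 1.72-fold (1.31 to 2.25). PER3 per NPAS2 was 0.963, 3.09 and 0.987, with CM over IM at 3.21-fold (2.58 to 3.99) and CMT over IM at 1.03-fold (0.824 to 1.28). DBP per NFIL3, the activator and the repressor of the D-box, was 0.251, 0.627 and 0.120. That ratio was 2.497-fold higher in CM than in IM (1.89 to 3.29) and 5.21-fold higher in CM than in CMT (3.74 to 7.32). For DBP per NFIL3 it was CMT and not IM that was lowest, by 2.09-fold (1.47 to 2.99).

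**Figure D4:**
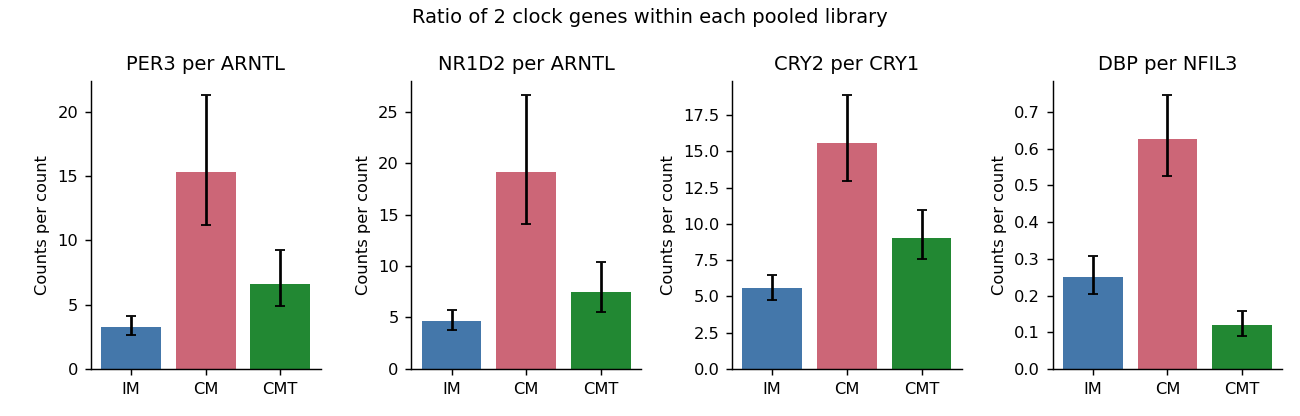
Counts of 1 clock gene per count of another within each pooled library (vertical axis, a ratio, starting at 0), with exact 95% Clopper-Pearson intervals for counting error. CM is the highest library for all 4 ratios, such as 15.3 counts of PER3 per count of ARNTL against 3.29 in IM and 6.64 in CMT. That follows from the choice of pairs, made after the values were seen: each sets a gene highest in CM over a gene lowest in CM.

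Of 24 genes known as outputs of the clock in kidney or other organs, 23 were matched and 21 were compared. Many of them respond to other signals too, such as fasting and steroid hormones. The list was chosen with earlier results of these data known, so its counts beside the shares of all genes carry no test. In CM against IM 2 were called lower and 0 higher, where 2.71% of all compared genes were called. They were CYP4A24, a fatty acid hydroxylase with near-identical copies whose reads may be shared, at 4.68-fold (4.55 to 4.80), and PDK4, an inhibitor of pyruvate oxidation, at 2.60-fold (2.39 to 2.83). In CMT against CM 4 were higher and 1 lower, where 2.95% of all genes were called. Besides CYP4A24 (5.57-fold, 5.42 to 5.72) and PDK4 (9.19-fold, 8.51 to 9.92), the higher ones were ALAS1, the first enzyme of heme synthesis (2.71-fold, 2.58 to 2.85), and POR, the electron donor of P450 enzymes (2.38-fold, 2.22 to 2.56). PPARA, a fatty acid receptor gene, was the lower one (3.16-fold, 2.46 to 4.11). PDK4 was the only one of the 21 called in CMT against IM (3.53-fold, 3.35 to 3.73), where 1.5% of all genes were. Its level ran 106, 40.7 and 374 CPM in IM, CM and CMT.

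No other compared output was called. USP2, a deubiquitinase that is a direct target of the ARNTL dimer, stood at 102, 95.1 and 180 CPM, with CMT over CM at 1.90-fold (1.78 to 2.02), short of the 2-fold rule. SCNN1A, the alpha subunit of the epithelial sodium channel, stood at 215, 190 and 223 CPM, and its fold of CM to IM was 0.883 (0.842 to 0.925). AVPR1A, a vasopressin receptor gene, had 6, 35 and 2 counts and fell below the filter, so it is not among the 21. On these few counts CM stood over IM by 5.11-fold (2.13 to 14.9) and over CMT by 12.3-fold (3.15 to 105), both intervals lying beyond 2-fold. Over the 21 compared outputs the median log2 fold was -0.10 for CM over IM, 0.29 for CMT over CM and 0.15 for CMT over IM.

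The pools were checked against 12 lists of cell type markers, of which 27 of 31 genes were matched. Kidney markers were present in each pool: the summed level of the 4 matched proximal tubule markers was 3671, 3874 and 3790 CPM in IM, CM and CMT. The 4 lymphocyte markers, all matched and none at 0, summed to 23.6, 114 and 29.4 CPM, highest in CM, the library in which ARNTL, NPAS2 and CRY1 were lowest. Most of that sum was IGJ, the joining chain of antibodies, at 16.1, 102 and 21.8 CPM. CD79A and MZB1, on few counts, were also highest in CM, at 1.09, 2.86 and 0.604 CPM and at 0.966, 4.66 and 1.51 CPM. CD3E of T cells instead stood at 5.38, 4.76 and 5.52 CPM. The 2 liver markers, neither at 0, summed to 118, 1.32 and 30.6 CPM. Nearly all of that sum was ALB, as APOA2 had 5, 1 and 1 counts and fell below the filter. The summed levels of the other 10 lists differed between their highest and lowest pool by 1.06-fold to 2.53-fold, and ADIPOQ of the adipocyte list was at 0 in each pool. Single members differed more than some sums: ATP6V1B1, a proton pump subunit of the collecting duct list, stood higher in CM, 1.68-fold over IM and 1.76-fold over CMT, and SLC5A2, a glucose transporter of the proximal tubule list, stood 1.496-fold higher in IM than in CM. The part of these cells in the levels of the clock genes was not tested.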

How the data were processed

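Kidney RNA of 3 pigs a group was pooled and made into 1 library per group with an Ion Torrent total RNA kit, per the labels' protocols; the series' design text speaks of Illumina sequencing in triplicate. The deposited values are raw counts per gene, whole numbers with different totals. FastQC is named in the submitters' processing notes. Aligner, counter, strand setting, annotation and build are not given in the sources used here. Reads of overlapping or antisense genes therefore cannot be told apart, and no coordinates are printed. An unnamed column with 4 values was not used.

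Columns were assigned to groups by name. Of 19902 numbered genes, 1556 received a symbol from the RefSeq table of Sscrofa11.1, DBP among them. Library sizes were scaled with TMM (edgeR 4.0.16, R 4.3.3). Genes with a mean of at least 1 CPM were compared. Fold intervals are Clopper-Pearson intervals of a share of counts, and those of within-library ratios compared between libraries are exact conditional odds ratio intervals (SciPy 1.17.1). The interval rule was tested on simulated counts that held counting error only, with no spread between pigs or libraries. That test therefore cannot show how the rule does under such spread. With 1 library per group no test over samples was possible. For a gene at 0, the limit is a floor of 3 counts, or 0.159 to 0.227 CPM, and not a Poisson bound.

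Named were all member genes, the called genes of the wider and output lists, fixed partner genes whatever their values (NR1D2, BHLHE40, BHLHE41, TEF, HLF, NFIL3, CIART and RORA), the response genes FKBP5, TSC22D3, SGK1, FOS and EGR1, and the 3 genes most like ARNTL and PER1. CSNK1D, CSNK1E, USP2, NAMPT, SCNN1A, AVPR1A and the single cell type markers were named after their values were seen. Some genes that these rules took are not reported here. The members, lists and rules were chosen with earlier results of these data known.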

Additional observations from a re-analysis of the deposited data

How the results depend on the processing

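The count of clock genes called in CM against IM, 1 of 8, was 0 when a mean of at least 5 CPM was asked, because ARNTL then drops out, and 0 with a 99% interval; it was 3 with a 1.5-fold rule. With the 1.5-fold rule the count went from 0 to 1 both in CMT against CM and when CMT was set against IM, and from 0 to 1 for the wider clock list in CMT against CM. DESeq2's size factors, total counts, total counts without mitochondrial and ribosomal RNA, and no filter left all these counts as they were, as did counting DBP as a member, an alternative chosen after seeing the data. Across these scalings no fold of the 8 genes changed sign in the 3 comparisons, and the largest shift was 0.07 on the log2 scale. No paired analysis was possible because each group has 1 library, and for the same reason no replicate could be left out. Depth limits CLOCK, ARNTL and CIART among others, with lowest counts in a library of 25, 43 and 15.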

Other observations

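Genes most like a clock gene across the 3 libraries were sought among genes with a symbol and a mean of at least 5 CPM, by the larger of the differences in log2 fold for CM against IM and CMT against CM. For ARNTL, with log2 folds of -1.55 and 0.64, the nearest 3 included ENDOD1 (156 counts in IM, 67 in CM and 68 in CMT) and SLC16A10, an aromatic amino acid transporter (245, 88 and 113 counts in the same order). Their larger differences from ARNTL were 0.14 and 0.23, and 2 of 9233 genes searched lay within 0.2. For PER1 the nearest were MXD1 (144, 188 and 185 counts), MED24, a subunit of the Mediator complex (201, 263 and 260 counts), and DDIT3, a stress response transcription factor (202, 257 and 260 counts). Their larger differences were 0.02, 0.02 and 0.03, and 144 of 9232 genes lay within 0.2 of PER1. With 3 libraries such likeness is a description of these pools.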
